A study of Mus musculus with 12 samples.

Results

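Translation factors are the proteins that load messenger RNA and initiator tRNA onto the ribosome, move the ribosome along the coding sequence and release the finished chain. The genes described here are 40 mouse translation factor genes, taken by their symbols, out of 55536 features counted by RNA sequencing (RNA-seq). They fall into 12 subunits of eIF3, 10 genes of the eIF4F group, 9 other initiation factors, 6 elongation genes and 3 termination genes, and every one of them was matched to 1 Ensembl gene. All 40 had enough counts to be tested in each comparison.

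Initiation proceeds in steps. The multisubunit complex eIF3 keeps the small ribosomal subunit ready for mRNA, eIF1 and eIF1A help it to scan for the start codon, and eIF2 brings the initiator tRNA. The eIF4F complex joins the cap-binding protein eIF4E, the helicase eIF4A and the scaffold eIF4G at the mRNA 5′ end, while eIF5 and eIF5B lead to joining of the large subunit. During elongation, eEF1A delivers aminoacyl-tRNA, the eEF1B subunits recharge it with GTP and eEF2 moves the ribosome by 1 codon. Termination uses eRF1 (*Etf1*) and the GTPase eRF3a (*Gspt1*). Many of these mRNAs are classed as TOP mRNAs, which start with a C followed by a run of pyrimidines and whose translation responds to mTORC1. B cells that are activated to divide and to secrete antibody increase protein synthesis strongly, which makes this machinery of interest in such cultures.

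The mRNA was measured in cultured splenic B lymphocytes of C57BL/6 mice, 3 control mice and 3 Pdap1-deficient mice (homozygous for a floxed *Pdap1* allele, labelled PDAP1 KO), aged between 7 and 27 wk by the study's methods. All 6 mice, controls included, carried 1 copy of a Cre recombinase allele that acts in the B cell lineage. In the Pdap1-deficient mice it deletes exon 2 of *Pdap1*, which encodes a phosphoprotein. Cells of each mouse were stimulated for 48 h in both of 2 ways, each with 5 µg/ml of LPS. The first, LPS-IL-4, added 5 ng/ml of IL-4 and induces class switching to IgG1. The second, LPS-BAFF-TGFβ, added 10 ng/ml of BAFF with 2 ng/ml of TGFβ and induces class switching to IgG2b. This gave 12 libraries in 4 groups of 3. The labels name the lymphoma line CH12 in their cell line field, whereas the study's methods describe primary cells, which the genotypes also require. The B cell markers *Cd79a*, *Cd79b*, *Ms4a1*, *Pax5*, *Cd74*, *Cd22* and *Blk* had counts in all libraries. Levels are given as CPM, counts scaled to the library total after TMM normalization.

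Library totals lay between 4579793 and 15869143 counts, except for the LPS-BAFF-TGFβ library of control mouse 1, which held 69500640. That library stood apart from the other 2 of its group in many members. The libraries of Pdap1-deficient mouse 2 also stood apart. Their summed level of 8 myeloid markers (*Lyz2*, *Csf1r*, *Itgam*, *Cd14*, *Adgre1*, *S100a8*, *S100a9*, *Mpo*) was 317 CPM with LPS-IL-4 and 550 CPM with LPS-BAFF-TGFβ. In the control libraries the same sum was between 5.22 and 24.8 CPM, and in the remaining Pdap1-deficient libraries between 6.77 and 79.0 CPM. *Lyz2* alone stood at 94.0 and 278 CPM in mouse 2. By the Y-linked gene *Ddx3y*, control mice 1 and 3 and Pdap1-deficient mouse 1 were female and the others male. *Prdm1*, which encodes the plasmablast regulator Blimp1, was between 50.6 and 71.2 CPM in the Pdap1-deficient LPS-IL-4 libraries and at 18.2, 14.1 and 20 CPM in the controls, and passed the test. The sum of 6 plasmablast markers, *Prdm1* included, was between 752 and 900 CPM in these libraries and between 630 and 680 CPM in their controls. Of the other genes in this sum, *Irf4* was also higher without overlap (379, 322 and 400 against 309, 287 and 294 CPM). *Sdc1* was lower without overlap (5.84, 3.95 and 5.29 against 6.42, 8.99 and 9.9 CPM). *Jchain*, *Xbp1* and *Mzb1* overlapped between genotypes. With LPS-BAFF-TGFβ the sum was between 480 and 530 CPM in Pdap1-deficient and between 471 and 531 CPM in control cells. In such bulk libraries a lower share of one cell type and less of its RNA per cell cannot be told apart.

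The deleted gene was measured first. *Pdap1* stood at 93.0, 91.4 and 97.8 CPM in control mice 1 to 3 with LPS-IL-4 and at 23.3, 27.2 and 29.9 CPM in Pdap1-deficient mice 1 to 3. With LPS-BAFF-TGFβ it stood at 199, 80.3 and 100 CPM in controls and at 26.4, 26.0 and 23 CPM in Pdap1-deficient cells. The groups did not overlap in either stimulation, and the remaining level was 28.5% and 19.9% of the control mean. The log2 fold change was −1.82 ± 0.11 (SE; edgeR adjusted p = 3.52e-05) with LPS-IL-4. With LPS-BAFF-TGFβ it was −2.33 ± 0.36 and missed the threshold (edgeR adjusted p = 0.0929), and without control mouse 1 it was −1.85 (edgeR adjusted p = 4.9e-06). Counts on exons outside the deleted one enter these values.

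The 40 genes spanned a 1260-fold range of level per kilobase of exon. The length used was that of all annotated exons of a gene merged, over all its transcripts. Levels per kilobase and their order therefore also depend on the annotation. *Eef1a1*, the carrier of aminoacyl-tRNA, was the highest, with 3640 ± 62.2 CPM per kilobase in LPS-IL-4 control cells and 4200 ± 636 in LPS-BAFF-TGFβ control cells (SD, n = 3 mice). Next came *Eef2*, the translocase, with 1210 ± 83.2 and 1250 ± 155 CPM per kilobase. *Eif5a*, which helps ribosomes through difficult peptide bonds, followed with 398 ± 5.77 and 376 ± 56.0 CPM per kilobase. Their order was the same in all 4 group means.

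Below these, levels per kilobase were graded. Averaged over the 12 libraries, *Eef1b2*, *Eef1g*, *Eif3c*, *Etf1*, *Pabpc1* and *Eif4g2* lay between 173 and 236 CPM per kilobase. The order of these genes differed between the 4 groups. In LPS-IL-4 controls, *Etf1* (225 ± 17.7 CPM per kilobase) and *Eef1g* (219 ± 11.9) did not differ beyond their SDs. Within eIF3, whose subunits act in 1 complex, the levels still differed 11.1-fold, from 17.7 CPM per kilobase for *Eif3d* to 197 for *Eif3c*, with a median of 77.0. The merged exons were 4968 bases long for *Eif3d* and 3511 for *Eif3c*. How much of this range comes from the annotated length was not tested. In the eIF4F group they ran from 4.27 for *Eif4e3*, a minor cap-binding paralog, to 173 for *Eif4g2*, an eIF4G-like scaffold that lacks the eIF4E-binding site. Among the other initiation factors the range was from 8.33 (*Eif2d*) to 336 (*Eif5a*) CPM per kilobase. The lowest of all was *Eef2k*, the kinase that inhibits eEF2, at 3.01 CPM per kilobase.

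**Figure D1:**
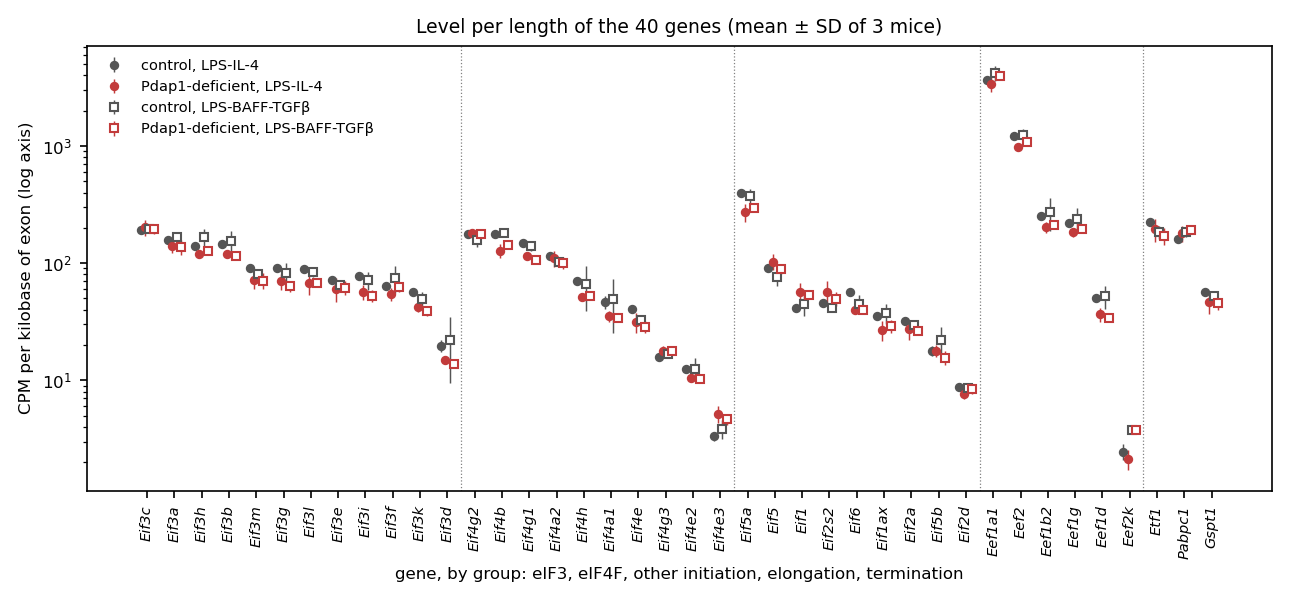
Level of each of the 40 translation factor genes in CPM per kilobase of exon (log axis), as mean ± SD of 3 mice; grey marks are control and red marks Pdap1-deficient cells, filled circles LPS-IL-4 and open squares LPS-BAFF-TGFβ. *Eef1a1* and *Eef2* stand above all others, *Eef2k* and *Eif4e3* below all others, and the 4 groups lie close together for most genes.

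The spread between mice differed by group. The median coefficient of variation of the 40 genes was 4.48% in control and 13.9% in Pdap1-deficient cells with LPS-IL-4. With LPS-BAFF-TGFβ it was 14.4% in control and 8.71% in Pdap1-deficient cells. The largest single value, 56.9%, was that of *Eif3d* in LPS-BAFF-TGFβ controls, where control mouse 1 stood at 182 CPM and the other 2 at 70.0 and 77.8 CPM. Of the 40 genes, 22 had their highest LPS-BAFF-TGFβ value in the library of control mouse 1, a count not made over all genes.

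Counting may be uncertain for genes with near-identical copies. In 9 members more than 10% of the 50-base words of their transcripts also occur in transcripts of another gene. The shares were 44.2% for *Eef1g*, 39.4% for *Eef1a1*, 28.4% for *Eif4a1*, 20.3% for *Eif3h*, 19.2% for *Eif1*, 17.2% for *Eif3m*, 12.3% for *Eif4e3*, 10.6% for *Eif4a2* and 10.2% for *Eif2s2*. Values of these genes depend on how shared reads were counted. The shares were 0.146% for *Eif3k*, 0.0361% for *Eif4h*, 2.15% for *Eif6*, 6.02% for *Eif4e* and 0.187% for *Eef2k*, the genes on which the tests below turn.

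The promoters of the members (250 bases before to 50 after the start, RefSeq on GRCm38.p6) were searched for short motifs. Of the 40 genes, 30 had an entry. A gene with several annotated starts was searched at each and counted once if any of them matched. The canonical E-box CACGTG can be bound by Myc and related factors and reads the same on both strands. It was present in 10 of these 30 genes (33.3%), against 8.09% of all 27025 genes with an entry and 11.9% of the 9292 tested. It occurred in *Eif3a*, *Eif3f*, *Eif3k*, *Eif4a1*, *Eif4e*, *Eif4g1*, *Eif4h*, *Eif5a*, *Eef2* and *Eef2k*. The windows around the E-box are shown for members that passed a test by genotype (*Eif3k*, *Eif4h*) or by stimulation (*Eif4e*, *Eef2k*), with the motif in capitals. They are printed 5′ to 3′ on the strand of the gene, for *Eif3k* (chr7:28981915-28981944, minus strand, motif at −44 from the start), *Eif4h* (chr5:134639488-134639517, minus strand, at −96), *Eif4e* (chr3:138527192-138527221, plus strand, at −64) and *Eef2k* (chr7:120842788-120842817, plus strand, at −31).
Eif3k: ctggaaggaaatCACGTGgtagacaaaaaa
Eif4h: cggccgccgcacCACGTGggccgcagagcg
Eif4e: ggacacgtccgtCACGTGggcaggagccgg
Eef2k: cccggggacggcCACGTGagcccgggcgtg

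*Eif4e* holds a further E-box at −228, and *Eif6*, which also passed a test, had no entry. The element TGATGNAA, to which Atf4 can bind with a C/EBP partner, was searched on both strands. The element was found in 1 of the 30 genes, *Eef2k* (3.33%), against 4.51% of all genes with an entry and 2.89% of those tested. It lies before another annotated start of *Eef2k* than the E-box shown.

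A tract like the start of TOP mRNAs, a C followed by at least 5 pyrimidines, was searched on the strand of the gene. It had to begin within 15 bases of the annotated start, on either side of it. Among members with an entry, such a tract was found in 4 of the 7 classed as TOP mRNAs (57.1%) and in 3 of the other 23 (13%). The share was 29% of all genes with an entry and 30.6% of those tested. Windows of 30 bases around the tract are shown for *Eef1a1* (chr9:78481710-78481739, minus strand, tract from −5), *Eif3f* (chr7:108934403-108934432, plus strand, from −4), *Eif4b* (chr15:102073749-102073778, plus strand, from −12) and *Eif4e* (chr3:138527246-138527275, plus strand, from −12), the last of which is not in the TOP list. The tract is in capitals. The tracts shown for *Eif4b* and *Eif4e* end before the annotated start, so an mRNA beginning there would not hold them. *Eif4b* has a further tract that begins after the start.
Eef1a1: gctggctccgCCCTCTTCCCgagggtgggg
Eif3f: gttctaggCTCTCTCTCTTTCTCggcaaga
Eif4b: tgtcgcgcaggtCTTCCCgtcggacgccgc
Eif4e: tttcctctcgCCCCCCCTTCaggagcggtt

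A match is a description of these letters and was not tested for binding. Whether genes with a match differ more between genotypes was not tested.

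The first comparison asked which translation factor mRNAs differed between Pdap1-deficient and control cells stimulated with LPS-IL-4. *Eif3k*, *Eif4h* and *Eif6* fell in Pdap1-deficient cells to between 70.6% and 74.3% of the control mean, and no member rose. Of the 40 genes, 3 were thus called lower, against 2.12% of all 15074 genes tested, and 0 were called higher, against 2.79% (4.92% in both directions). At an unadjusted edgeR p under 0.05, 20 members were lower and 2 were higher, against 11.7% and 12.1% of all genes.

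Below the threshold, the values leaned the same way. The fitted value was lower in Pdap1-deficient cells for 32 of the 40 genes, against 47.3% of all genes, with a median log2 fold change of −0.26 beside 0.02 over all genes tested. The libraries of the 2 genotypes did not overlap in 25 members, with 22 lower (16.1% of all genes were lower without overlap) and 3 higher (15.5%). The 3 higher were *Eif4e3*, *Eif4g3* and *Eif1*. The 40 genes together took between 2.942% and 2.98% of all counts in the control libraries and between 2.432% and 2.856% in the Pdap1-deficient ones. The share of mitochondrial counts was 2.342%, 1.988% and 2.237% in control mice 1 to 3 and 2.505%, 3.262% and 2.926% in Pdap1-deficient mice 1 to 3, highest in mouse 2. Its part in the lower values was not tested.

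**Figure D2:**
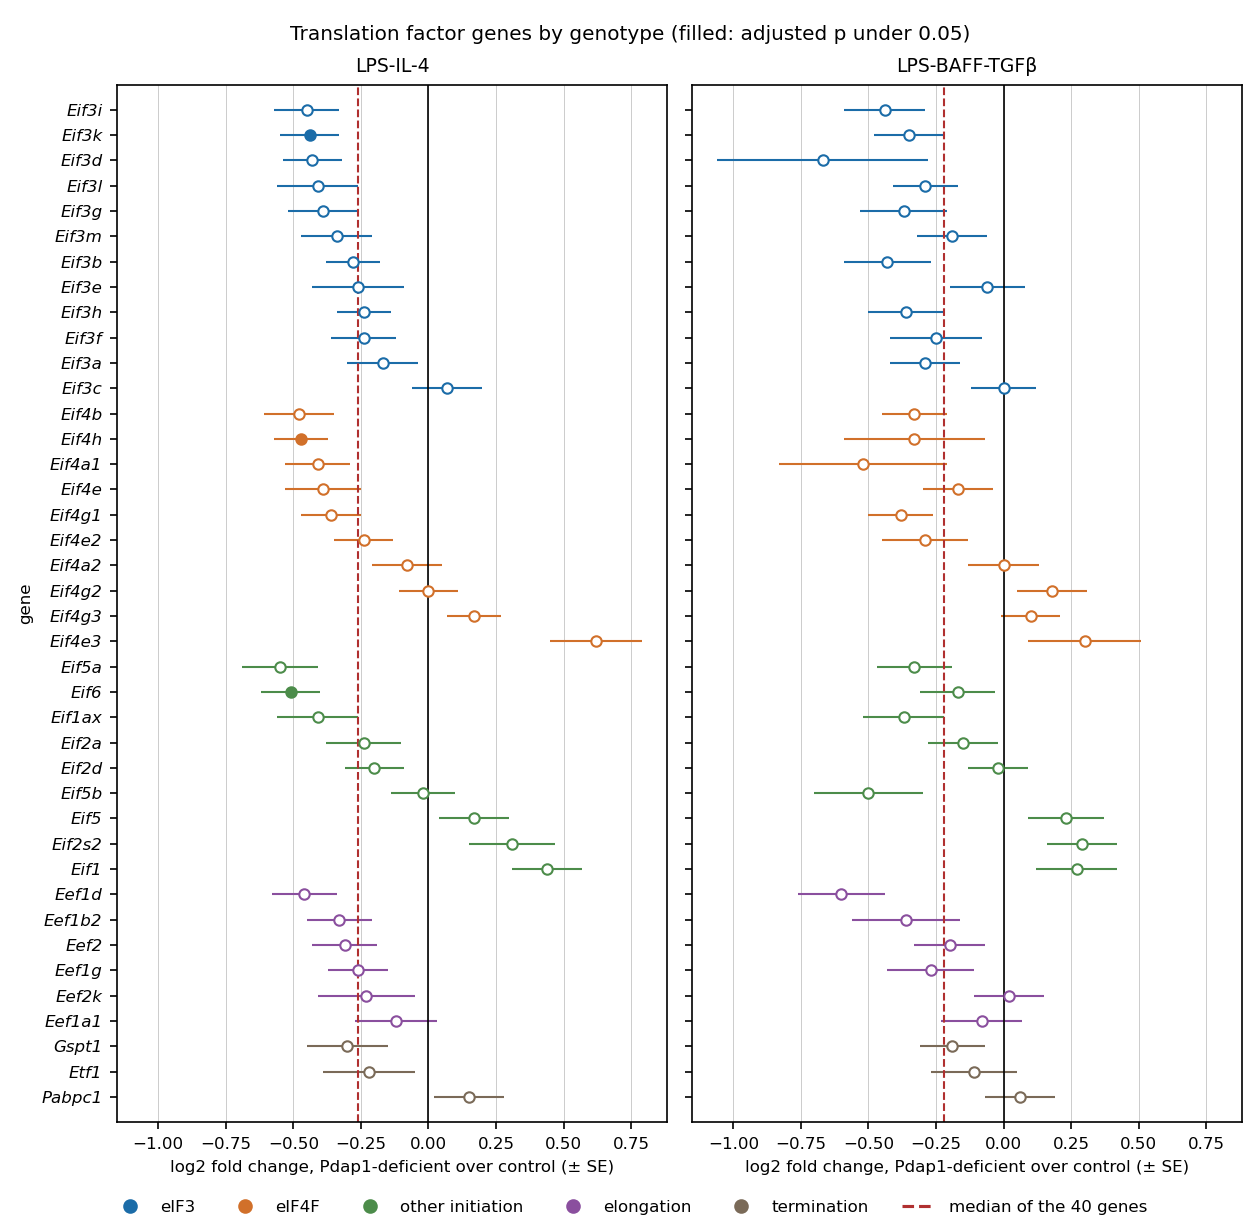
Log2 fold change (± SE) of the 40 genes in Pdap1-deficient over control cells with LPS-IL-4 (left) and LPS-BAFF-TGFβ (right), coloured by group and sorted within group by the LPS-IL-4 value; filled points passed an edgeR adjusted p of 0.05 and the dashed line is the median of the 40. Only *Eif3k*, *Eif4h* and *Eif6* are filled, all on the left, and 32 and 31 of the 40 points lie below 0.

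Within eIF3, 11 of 12 subunits had lower fitted values and 1, *Eif3k*, was called (median log2 fold change −0.31). *Eif3k* (chr7:28971372-28981864, minus strand, GRCm38, protein-coding) encodes the smallest of these subunits, which lies at the periphery of the complex. It stood at 145, 147 and 165 CPM in control mice 1 to 3 and at 123, 104 and 113 CPM in Pdap1-deficient mice 1 to 3. All Pdap1-deficient libraries were thus below all controls. The log2 fold change was −0.44 ± 0.11 (SE; edgeR adjusted p = 0.0476), just inside the threshold, and its promoter is the first of the E-box windows above.

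*Eif3i*, a subunit that associates with *Eif3b* and *Eif3g* products, had the largest eIF3 difference. It stood at 284, 284 and 291 CPM in controls and at 226, 176 and 233 CPM in Pdap1-deficient cells, again without overlap, and missed the threshold (log2 fold change −0.45 ± 0.12, edgeR adjusted p = 0.0674). *Eif3d*, which contacts the cap of selected mRNAs, had a log2 fold change of −0.43 ± 0.11 (edgeR adjusted p = 0.0533). The most abundant subunit per length, *Eif3c*, was the exception, with 666, 694 and 675 CPM in controls and 794, 588 and 761 CPM in Pdap1-deficient cells. Its Pdap1-deficient values lay on both sides of the controls, and its fitted difference was 0.07 ± 0.13 on the log2 scale. The other 8 subunits lay between −0.41 (*Eif3l*) and −0.17 (*Eif3a*).

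In the eIF4F group, 7 of 10 genes had lower fitted values and 1 was called. *Eif4h* (chr5:134619721-134639490, minus strand), a cofactor that stimulates the helicase eIF4A, stood at 373, 389 and 409 CPM in controls and at 299, 283 and 269 CPM in Pdap1-deficient cells. The groups were separated by a gap wider than the range within either, and the log2 fold change was −0.47 ± 0.10 (SE; edgeR adjusted p = 0.0289). *Eif4b*, the other cofactor of eIF4A, had a similar difference that missed the threshold, with a log2 fold change of −0.48 ± 0.13 (edgeR adjusted p = 0.0567). The helicase genes themselves differed from each other in value: *Eif4a1* stood at 75.6% and its paralog *Eif4a2* at 95.0% of the control mean, with log2 fold changes of −0.41 ± 0.12 and −0.08 ± 0.13, neither called.

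The cap-binding and scaffold genes differed by paralog in value, but none was called and paralogs were not tested against each other. *Eif4e*, the main cap-binding protein, stood at 77.0% of the control mean (log2 fold change −0.39 ± 0.14, edgeR adjusted p = 0.137), and *Eif4e2* at 85.0%. *Eif4e3* stood at 9.14, 7.64 and 8.50 CPM in controls and at 10.6, 14 and 14.7 CPM in Pdap1-deficient cells. It was thus the member with the largest difference, without overlap, on a low level, and it missed the threshold (log2 fold change 0.62 ± 0.17, edgeR adjusted p = 0.0652). For the scaffolds, *Eif4g1* stood at 78.1%, *Eif4g2* at 101% and *Eif4g3* at 114% of the control mean, and none was called. *Eif4g2* was at 1870, 1860 and 1700 CPM in controls and 1840, 1750 and 1880 CPM in Pdap1-deficient cells, overlapping fully.

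Of the 9 other initiation factors, 1 was called. *Eif6* (chr2:155819832-155826925, minus strand), which keeps the large ribosomal subunit from joining prematurely and takes part in its maturation, stood at 149, 143 and 167 CPM in controls and at 119, 104 and 102 CPM in Pdap1-deficient cells. The groups did not overlap (log2 fold change −0.51 ± 0.11, edgeR adjusted p = 0.0297). *Eif5a* had a larger difference with more spread. It stood at 953, 930 and 954 CPM in controls and at 747, 525 and 671 CPM in Pdap1-deficient cells, and missed the threshold (log2 fold change −0.55 ± 0.14, edgeR adjusted p = 0.0523).

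The start codon and subunit joining factors went in different directions in value. *Eif1*, which guards start codon choice, stood at 83.8, 85.2 and 89.9 CPM in controls and at 102, 144 and 109 CPM in Pdap1-deficient cells, higher without overlap (log2 fold change 0.44 ± 0.13, edgeR adjusted p = 0.07). *Eif1ax*, its partner in scanning, was at 75.8% of the control mean. *Eif2s2*, the beta subunit of eIF2, was at 125% of the control mean. *Eif5*, the activator of the eIF2 GTPase, was at 113%. *Eif5b*, the GTPase of subunit joining, was at 99.4%, with control values of 176, 190 and 158 CPM and Pdap1-deficient values of 152, 194 and 177 CPM. *Eif2a* and *Eif2d*, which can deliver initiator tRNA by other routes, were at 85.1% and 87.5%. None of these was called.

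All 6 elongation genes had lower fitted values and none was called (median log2 fold change −0.28; smallest edgeR adjusted p = 0.058). At an unadjusted edgeR p under 0.05, 4 of the 6 were lower (11.7% of all genes). *Eef1d*, a guanine nucleotide exchange subunit of eEF1B, stood at 322, 320 and 334 CPM in controls and at 269, 204 and 242 CPM in Pdap1-deficient cells, without overlap (log2 fold change −0.46 ± 0.12, edgeR adjusted p = 0.058). The other eEF1B subunits, *Eef1b2* and *Eef1g*, were at 80.0% and 83.9% of the control mean, and *Eef2* at 81.3%. *Eef1a1*, which gives the largest share of the counts, stood at 8910, 9120 and 9220 CPM in controls and at 9270, 7040 and 8890 CPM in Pdap1-deficient cells. Only Pdap1-deficient mouse 2 and, narrowly, mouse 3 were below the controls there, and the log2 fold change was −0.12 ± 0.15.

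The 3 termination genes were not called. *Gspt1* stood at 315, 313 and 304 CPM in controls and at 299, 196 and 264 CPM in Pdap1-deficient cells, lower without overlap (log2 fold change −0.30 ± 0.15, edgeR adjusted p = 0.25). *Etf1* stood at 835, 901 and 770 CPM in controls and at 805, 541 and 822 CPM in Pdap1-deficient cells, where mouse 2 alone was below all controls. *Pabpc1*, the cytoplasmic poly(A)-binding protein that also promotes termination, was at 111% of the control mean. The 12 members classed as TOP mRNAs, a list that cuts across the groups, had 0 calls by edgeR (4.92% of all genes), 7 lower and 0 higher at an unadjusted p under 0.05 (11.7% and 12.1%), and a median of −0.26.

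The pattern was strongest in 1 mouse. Pdap1-deficient mouse 2 held the lowest of the 6 LPS-IL-4 values in 29 of the 40 genes. How often it did so over all genes was not counted, so this number is not particular to the members. Relative to the control mean, the median log2 level of the 40 genes was −0.14 in Pdap1-deficient mouse 1, −0.47 in mouse 2 and −0.21 in mouse 3, while it lay between −0.02 and 0.02 in the controls. This is also the mouse with the high myeloid markers, whose part in the lower values was not tested. Without it, the median log2 fold change was −0.18, and 22 members were still lower without overlap (21.4% of all genes) and 6 higher (20.7%). The fit without it called 14 members lower (4.49% of all genes) and 3 higher (5.09%), namely *Eif1*, *Eif2s2* and *Eif5*.

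**Figure D3:**
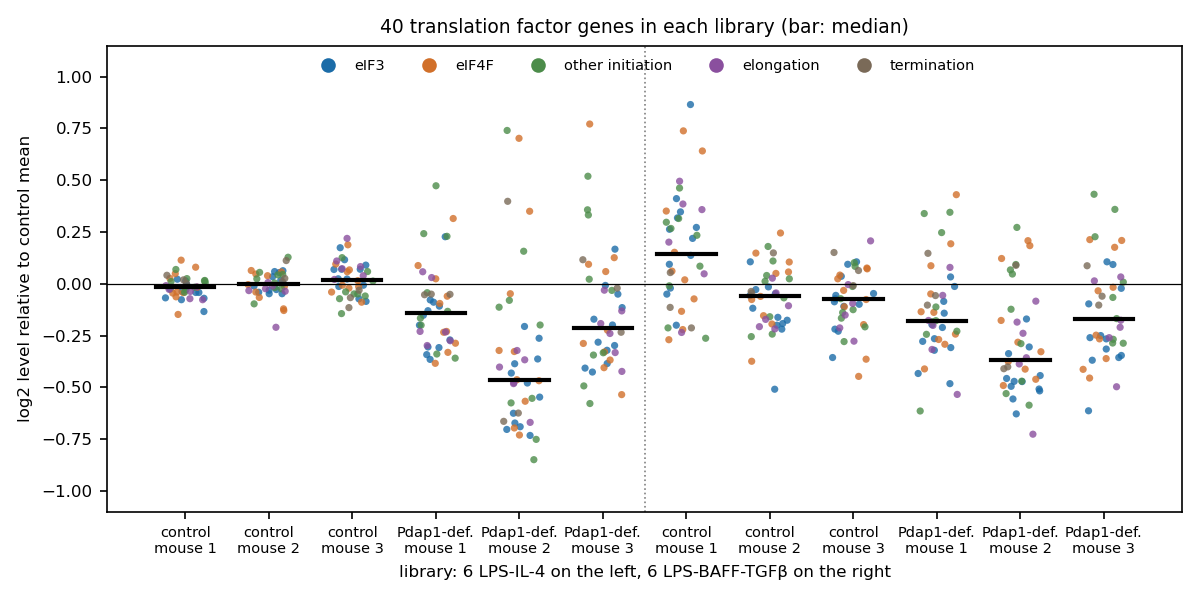
Level of each of the 40 genes in each library, as log2 of the CPM relative to the mean of the 3 controls of the same stimulation (0.5 CPM added); each point is 1 gene, coloured by group, and bars are medians. With LPS-IL-4 all 3 Pdap1-deficient medians (−0.14, −0.47 and −0.21) lie below the control medians, and with LPS-BAFF-TGFβ control mouse 1 (0.14) lies above the other libraries.

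The number of calls was sensitive to the libraries and the tool. With control mouse 1, 2 or 3 or Pdap1-deficient mouse 3 left out, 0 members were called by edgeR, where 0.585%, 0.44%, 0.505% and 1.05% of all genes were. Without Pdap1-deficient mouse 1, 12 members were called lower and 2 higher (11.4% of all genes in both directions). With all mice, DESeq2 called 12 lower (4.81% of all genes) and 1 higher (4.1%). *Eif3k*, *Eif4h* and *Eif6* remained past the threshold in 6, 6 and 8 of 13 alternative fits, and their log2 fold changes stayed between −0.60 and −0.36 with any 1 mouse left out. With the sex of the mouse as a covariate, a fit chosen after seeing the data, edgeR called 0 members and the median was −0.24. That fit called only 173 genes in all.

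The second comparison asked the same question with LPS-BAFF-TGFβ. No member was called by edgeR, where 0.462% of all 14079 genes were. DESeq2 called none either, where it called 0.749% of all genes higher and 0.234% lower. At an unadjusted edgeR p under 0.05, 12 members were lower (5.28% of all genes) and 0 higher (5.27%). The fitted value was lower for 31 of the 40 genes, against 49.1% of all genes, with a median log2 fold change of −0.22 beside 0.01 over all genes. In 16 members all Pdap1-deficient libraries were below all controls (9.08% of all genes), and in 0 they were above (9.55%). Of all counts, the 40 genes took between 2.801% and 3.186% in control and between 2.575% and 3.009% in Pdap1-deficient libraries, which overlapped.

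The values by group resembled those with LPS-IL-4 in size, with wider errors for several genes. The median log2 fold change was −0.32 in eIF3, −0.23 in the eIF4F group, −0.15 in the other initiation factors, −0.23 in the elongation genes and −0.11 in the termination genes. *Eef1d* had the smallest adjusted p of the 40. It stood at 428, 289 and 301 CPM in controls and at 230, 202 and 236 CPM in Pdap1-deficient cells, without overlap (log2 fold change −0.60 ± 0.16, edgeR adjusted p = 0.258). *Eif5b*, with 290, 176 and 182 CPM in controls and 137, 145 and 174 CPM in Pdap1-deficient cells, also did not overlap (log2 fold change −0.50 ± 0.20). Without control mouse 1 the log2 fold changes of *Eef1d* and *Eif5b* were −0.40 and −0.23.

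For some genes the value rested on 1 library. *Eif3d* (log2 fold change −0.67 ± 0.39) stood at 182, 70.0 and 77.8 CPM in controls and at 71.3, 70.6 and 65.1 CPM in Pdap1-deficient cells. *Eif4a1* (−0.52 ± 0.31) stood at 331, 153 and 154 CPM in controls and at 149, 149 and 145 CPM in Pdap1-deficient cells. In both, control mouse 1 was far above all other libraries, and without this mouse the log2 fold changes were −0.10 and −0.06. *Eif4h* showed the same pattern, with 548, 307 and 257 CPM in controls and 297, 289 and 292 CPM in Pdap1-deficient cells, and a log2 fold change of −0.33 ± 0.26 that became 0.05 without control mouse 1. *Eif3k* stood at 155, 119 and 128 CPM against 115, 95.8 and 103 CPM, without overlap (−0.35 ± 0.13). *Eif6* stood at 144, 121 and 98.8 CPM against 106, 110 and 107 CPM, so that the control values enclosed the Pdap1-deficient ones.

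Among further genes, *Eif5a* was at 79.0% of the control mean and *Gspt1* at 86.9%. *Gspt1* had LPS-BAFF-TGFβ control values of 293, 274 and 281 CPM and Pdap1-deficient values of 263, 212 and 263 CPM. *Eif3i* was at 73.7%, *Eif4b* at 79.4%, *Eif4g1* at 76.1%, *Eef2* at 86.7% and *Eef1a1* at 94.1% of the control mean. Of these genes only *Eef1a1* overlapped between genotypes. *Eif4g1* had a log2 fold change of −0.38 ± 0.12 (edgeR adjusted p = 0.332) and *Eif3i* of −0.44 ± 0.15 (edgeR adjusted p = 0.357). Values above the control mean were found for *Eif2s2* (121%), *Eif4e3* (121%), *Eif1* (120%), *Eif5* (117%), *Eif4g2* (113%), *Eif4g3* (107%), *Pabpc1* (104%) and *Eef2k* (101%), all with overlapping libraries and none called. *Eif3c*, *Eif4a2* and *Eif2d* were between 97.8% and 99.6%. The other 15 genes not given with values here stood between 73.6% (*Eif3b*) and 95.2% (*Eif3e*).

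Without control mouse 1, the median log2 fold change of the 40 genes was −0.13, and 20 members were lower without overlap (14.5% of all genes) and 2, *Eif1* and *Eif2s2*, were higher (14.9%). Pdap1-deficient mouse 2 held the lowest of the 6 values in 25 of the 40 genes, a count not made over all genes. Without this mouse the median was −0.21. Then 16 members were lower without overlap (13% of all genes) and 3, *Eif4g2*, *Eif2s2* and *Eif5*, were higher (13.8%). Relative to the mean of all 3 controls, the median log2 level was −0.18, −0.37 and −0.17 in Pdap1-deficient mice 1 to 3 and 0.14, −0.06 and −0.07 in control mice 1 to 3. In Pdap1-deficient mouse 1, 9.9% of the counts fell on 1 gene, *Lars2*.

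Whether the genotype difference itself depended on the stimulation was tested as an interaction over the 12 libraries. No member was called by edgeR (0.0% of 15794 genes) or DESeq2, and none had an unadjusted edgeR p under 0.05 (4.78% of all genes). The largest difference was that of *Eif5b*, whose genotype difference was lower by 0.50 ± 0.25 on the log2 scale with LPS-BAFF-TGFβ (edgeR adjusted p = 0.983), a value of −0.23 without control mouse 1. For *Eif6*, *Eif4h* and *Eif3k*, which were called only with LPS-IL-4, the interaction was 0.32 ± 0.18, 0.12 ± 0.29 and 0.07 ± 0.17 (edgeR adjusted p = 0.983, 0.997 and 0.996). A difference between stimulations was therefore not detectable for these genes at this spread.

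**Figure D4:**
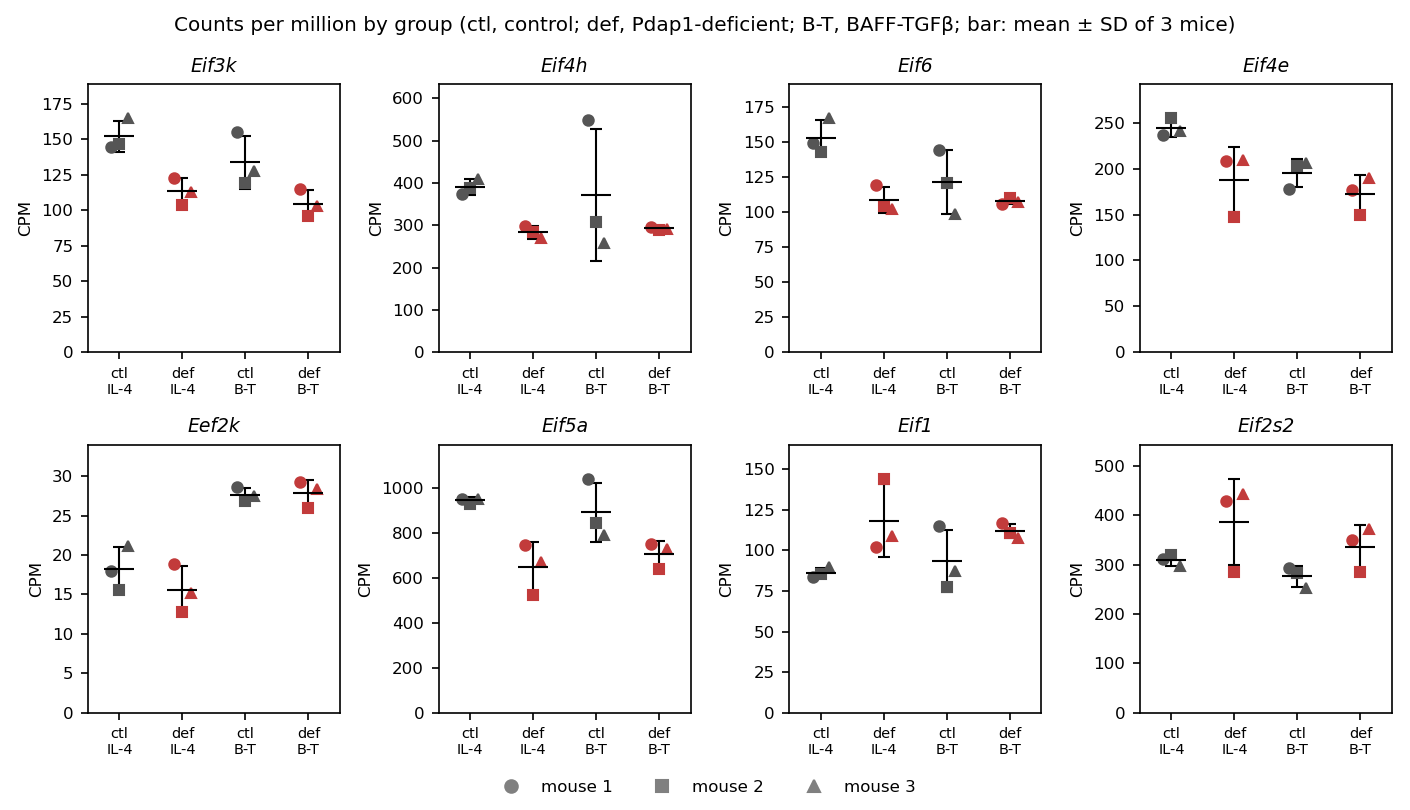
CPM of 8 members in each library by genotype and stimulation (circles, squares and triangles for mice 1 to 3; grey, control; red, Pdap1-deficient; bars, mean ± SD of 3 mice; axes start at 0). *Eif3k*, *Eif4h*, *Eif6* and *Eif5a* are lower in Pdap1-deficient LPS-IL-4 cells, *Eif1* is higher, and *Eef2k* is higher with LPS-BAFF-TGFβ in both genotypes.

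The last comparison asked how the stimulations differed within a genotype, as LPS-BAFF-TGFβ over LPS-IL-4. *Eef2k* rose in both genotypes. In control cells it stood at 18.0, 15.6 and 21.1 CPM with LPS-IL-4 and at 28.6, 26.8 and 27.5 CPM with LPS-BAFF-TGFβ. In Pdap1-deficient cells the values were 18.8, 12.8 and 15.2 CPM and 29.2, 26.0 and 28.3 CPM. The stimulations did not overlap in either genotype, and the log2 fold changes were 0.60 ± 0.14 (edgeR adjusted p = 0.0172) and 0.84 ± 0.16 (edgeR adjusted p = 0.00856). With 1 mouse left out, the call was kept in 1 of 3 fits in control and 2 of 3 in Pdap1-deficient cells. The largest edgeR adjusted p of these fits was 0.148 in control and 0.193 in Pdap1-deficient cells. The kinase (chr7:120842831-120907450, plus strand) phosphorylates eEF2 and slows elongation. Its genotype difference was small in each stimulation (log2 fold change −0.23 ± 0.18 and 0.02 ± 0.13).

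*Eif4e* (chr3:138526179-138559696, plus strand) fell in control cells, from 237, 255 and 241 CPM with LPS-IL-4 to 178, 203 and 206 CPM with LPS-BAFF-TGFβ (log2 fold change −0.32 ± 0.09, edgeR adjusted p = 0.0482). This call was kept in only 2 of 9 alternative fits. It was lost with the mouse as a block (edgeR adjusted p = 0.108), and with 1 mouse left out the edgeR adjusted p reached 0.247. In Pdap1-deficient cells it stood at 208, 147 and 209 CPM and at 177, 150 and 190 CPM, overlapping (−0.12 ± 0.15).

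Counted over the 40 genes, 1 was called higher and 1 lower in control cells, where 9.99% and 9.33% of all genes were. In Pdap1-deficient cells 1 was called higher (5.57% of all genes) and 0 lower (5.89%). The median log2 fold change was 0.03 in control and −0.03 in Pdap1-deficient cells. Without overlap between stimulations, control cells had 3 members higher (19.0% of all genes) and 7 lower (18.8%), and Pdap1-deficient cells had 2 higher (15%) and 0 lower (14.1%). The 3 higher in control cells were *Eif3a*, *Eef2k* and *Pabpc1*, and the 2 in Pdap1-deficient cells were *Eef2* and *Eef2k*.

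More members passed in alternative fits of this comparison. With the mouse as a block, the Pdap1-deficient cells had 6 calls (26.4% of all genes). These were *Eef2k*, *Eef1a1* (0.24, edgeR adjusted p = 0.0249), *Eif3f* (0.21, 0.0378) and *Eif4b* (0.17, 0.0438) higher, and *Eif5* (−0.22, 0.0154) and *Etf1* (−0.18, 0.0431) lower. Without control mouse 1, the control cells had 10 calls (27.4% of all genes), with *Eef1a1*, *Eef2k* and *Pabpc1* higher and *Eif3d*, *Eif3g*, *Eif3k*, *Eif4a1*, *Eif4e*, *Eif4h* and *Eif6* lower.

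Genes that act beside the members were taken from a list of 41 related cytosolic translation genes. With LPS-IL-4, 38 were tested, of which 1 rose (2.79% of all genes) and 3 fell (2.12%). With LPS-BAFF-TGFβ 0 of 37 passed in edgeR (0.462% of all genes), with 1 higher and 4 lower at an unadjusted p under 0.05 (5.27% and 5.28%). Their median log2 fold changes were −0.23 and −0.14. *Eif4ebp1*, which encodes an inhibitor that binds eIF4E and is a known Atf4 target, stood at 20.5, 21.7 and 27.6 CPM in LPS-IL-4 controls and at 74.5, 38.7 and 57.3 CPM in Pdap1-deficient cells. The groups did not overlap, and it rose by a log2 fold change of 1.28 ± 0.24 (edgeR adjusted p = 0.0297). With LPS-BAFF-TGFβ it stood at 26.0, 12.5 and 13.6 CPM against 61.3, 40.1 and 43.1 CPM, also without overlap (1.45 ± 0.31, edgeR adjusted p = 0.176).

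The 3 that fell with LPS-IL-4 were *Paip2b*, *Pabpc4* and *Eif2b1*. *Paip2b*, an inhibitor of the poly(A)-binding protein, stood at 81.9, 79.8 and 85.7 CPM in controls and 57.9, 57.2 and 62.5 CPM in Pdap1-deficient cells (log2 fold change −0.49 ± 0.10, edgeR adjusted p = 0.0233). *Pabpc4*, a paralog of *Pabpc1*, stood at 196, 196 and 233 CPM against 159, 115 and 143 CPM (−0.59 ± 0.14, edgeR adjusted p = 0.0381). *Eif2b1*, a subunit of the exchange factor of eIF2, stood at 97.8, 94.3 and 103 CPM against 79.9, 57.5 and 69.4 CPM (−0.52 ± 0.13, edgeR adjusted p = 0.049). None of the 3 overlapped between genotypes.

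Of 9 mitochondrial translation factors, 2 fell with LPS-IL-4 (2.12% of all genes). With LPS-BAFF-TGFβ 0 passed in edgeR (0.462%), and 2 were lower and 0 higher at an unadjusted p under 0.05 (5.28% and 5.27%). *Tufm*, the mitochondrial counterpart of eEF1A, stood at 54.8, 57.8 and 58 CPM in controls and at 41.7, 30.3 and 37.8 CPM in Pdap1-deficient cells (log2 fold change −0.65 ± 0.13, edgeR adjusted p = 0.0263). *Tsfm*, its exchange factor, stood at 29.7, 31.9 and 35.6 CPM and at 21.9, 18.7 and 22.0 CPM (−0.65 ± 0.13, edgeR adjusted p = 0.0215). These differences were larger on the log2 scale than that of any of the 40 members that fell.

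**Figure D5:**
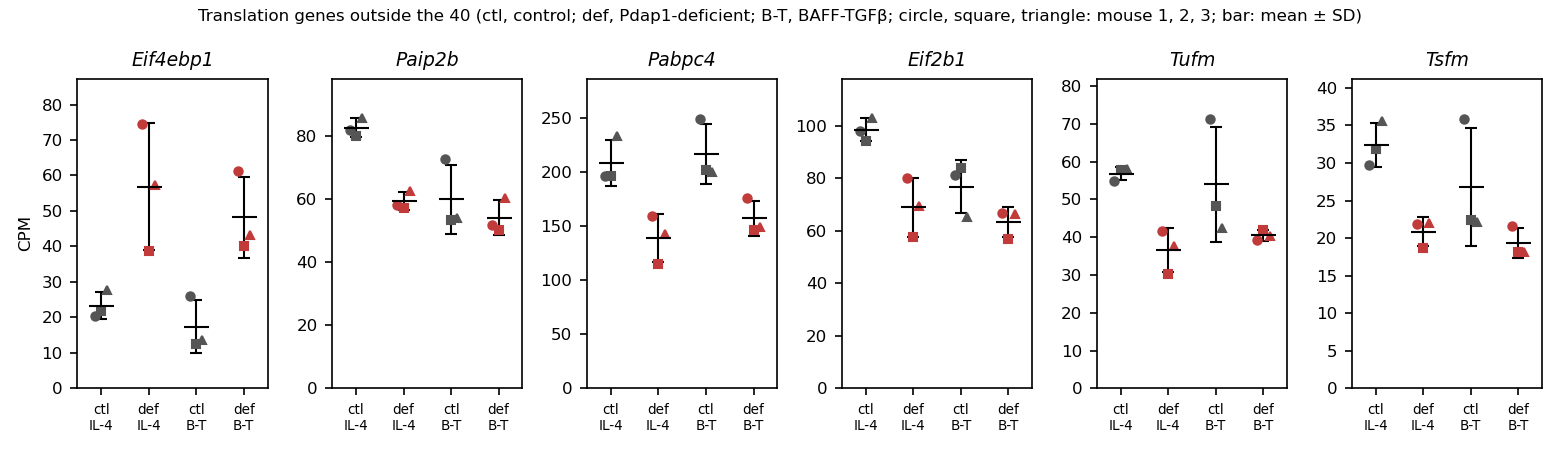
CPM of 6 translation genes outside the 40 that passed the LPS-IL-4 genotype comparison, in each library (circles, squares and triangles for mice 1 to 3; grey, control; red, Pdap1-deficient; bars, mean ± SD of 3 mice; axes start at 0). *Eif4ebp1* is higher in all Pdap1-deficient libraries, and the other 5 are lower with LPS-IL-4.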

How the data were processed

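RNA-seq libraries of 12 cultures were analysed. Per the labels and the study's methods, rRNA-depleted RNA was sequenced, reads were trimmed with Trim Galore 0.6.1, mapped to GRCm38 with STAR 2.6 and counted with HTSeq 0.9.1. The labels name a stranded mRNA kit, the methods a stranded total RNA kit. The annotation release and strand setting of the counting are not given in the sources used here. The authors deposited raw counts per Ensembl gene, used here, and a normalized signal, in which each library's counts had been divided by a size factor of its own. GENCODE M21 gave symbols, positions and exon lengths, the last from all annotated exons of a gene merged.

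The 40 members, the lists and the rule for named genes were chosen with earlier results of these data known. Named with values were *Pdap1*, members past the threshold, and in each group the most abundant member per length and that with the largest difference per genotype comparison, plus related genes that passed. Other members were named where counts were small or to account for all of them, after their values were seen.

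Groups of 3 mice were compared with edgeR 4.0.16 (R 4.3.3; filterByExpr, TMM, robust quasi-likelihood F test, Benjamini-Hochberg adjusted p under 0.05 over all genes tested). The median biological coefficient of variation was between 17.2% and 20.9%, so spread between mice, more than counting, set the precision. DESeq2 1.42.0 and the settings named under processing dependence were alternatives, and the steps were tested on simulated data. Both cultures of a mouse carry its number in the series description. Deviations from the group means correlated within mice by 0.579, 0.622 and 0.293 in Pdap1-deficient and by −0.181, 0.341 and −0.0228 in control cells, and the mouse was fitted as a block as an alternative. No library was a copy of another of its group. One item of the labels and marker lists is not reported here.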

Additional observations from a re-analysis of the deposited data

How the results depend on the processing

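In the LPS-IL-4 genotype comparison, edgeR called 741 genes and 3 members. DESeq2 called 1217 and 13, no filter on low counts 1694 and 15, sex as a covariate (chosen after seeing the data) 173 and 0, and an adjusted p under 0.01 130 and 0. Thinning all libraries to the smallest gave 733 genes and 5 members. With 1 mouse left out the counts ran from 69 to 1759 genes and from 0 to 17 members, and the median of the 40 genes from −0.35 to −0.18. With LPS-BAFF-TGFβ, where 65 genes and 0 members were called, DESeq2 called 172 genes, no filter 257 (and 1 member, *Eef1d*), sex as a covariate 42, the fit of 12 libraries 133, and an adjusted p under 0.01 27. Leaving out 1 mouse gave 19 to 116 genes and a median from −0.29 to −0.13. For the stimulations in control cells, DESeq2, its size factors in edgeR, thinning, the block and the fit of 12 libraries each called 1 member in place of 2, and an adjusted p under 0.01 called 1515 genes and 0 members. Leaving out 1 mouse gave 921 to 4009 genes and 0 to 10 members. In Pdap1-deficient cells an adjusted p under 0.01 called 853 genes, and leaving out 1 mouse gave 346 to 2398 genes and 0 to 2 members. For the interaction DESeq2 called 6 genes and no filter 1, and every fit called 0 members. The causes were not tested.

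Same-numbered mice of different genotype share only a number. Their correlations were 0.00828, −0.203 and −0.164 with LPS-IL-4 and 0.103, −0.205 and 0.0389 with LPS-BAFF-TGFβ. With this replicate block 641 genes and 1 member, *Eif6*, were called with LPS-IL-4. With the mouse as a block, 3854 genes and 6 members were called between stimulations in Pdap1-deficient cells.

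Differences near 0 changed sign. With LPS-IL-4, *Eif4g2* was −0.02 in DESeq2, −0.01 with its size factors and −0.0 with sex as a covariate, and with 1 mouse left out ran from −0.06 to 0.05, *Eif3c* from −0.03 to 0.2, *Eif5b* from −0.1 to 0.06 and *Eef1a1* from −0.21 to 0.01. With LPS-BAFF-TGFβ, *Eef2k* was −0.05 without a filter and *Eif3c* −0.01 in DESeq2, with its size factors and with 12 libraries, −0.06 without a filter and −0.0 when thinned or blocked. With 1 mouse left out *Eif3c* ran from −0.06 to 0.05, *Eef2k* from −0.02 to 0.04, *Eef1a1* from −0.19 to 0.03 and *Eif4h* from −0.55 to 0.05. All 72 alternative values of the levels moved by less than 1 SD. With 3 mice a group, the spread between mice limits what was detectable.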
